A study of Schmidtea mediterranea with 28 samples.

Results

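In planarians, the X1 fraction of a cell sort is enriched for dividing stem cells (neoblasts). The 199 transcripts described here are those whose level differed most between X1 and the other fractions. They were chosen on the wild type sorted libraries alone. For each of the 22944 transcripts in the tables, L was log2(cRPKM + 1), where cRPKM is a read count corrected for mappable length and sequencing depth. Transcripts with at least 5 cRPKM in wild type X1 were kept, which left 8079. They were ordered by the smaller of 2 differences, X1 minus X2 and X1 minus the mean of the 2 Xins libraries, and the first 200 were taken. From these, 1 was dropped because its component was on a list of 10 components set aside beforehand. The list also includes PIWIL1 (comp659, comp1258), vasa-like (comp1985, comp2082) and *bruli* (comp2592) transcripts. These ranked 326, 2994, 234, 377 and 523, so none of them was among the first 200. The 199 remaining transcripts come from 199 distinct components of a *de novo* assembly of *Schmidtea mediterranea*. Of them, 0 has a human best hit or a name in the annotation tables of the study, which cover 367 transcripts of the files. Those tables list chiefly RNA-binding proteins and spliceosome components, so absence from them does not mean that a transcript lacks a human homologue. They are therefore given by their assembly identifiers, with no function.

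The libraries are RNA-seq of the asexual Berlin-1 strain, a line raised from a single animal. Dissociated cells were sorted into X1 (doubled DNA content, hence cycling neoblasts), X2 (single DNA content and low cytoplasmic calcein staining, enriched for neoblast progeny) and Xins (single DNA content and high calcein staining, differentiated cells). Sorted wild type cells gave 1 X1, 1 X2 and 2 Xins libraries. Worms injected on 3 consecutive days with double-stranded RNA at 1 µg/µl and kept at 20 °C gave, for each of control (dsRNA against GFP, which planarians lack), *bruli* and *mbnl* RNAi, 2 X1, 1 X2 and 2 Xins libraries. Whole worms gave 1 library for each of control, *bruli*, *celf*, *esrp*, *mbnl*, *nova*, *ptbp*, *rbfox1* and *rbfoxs* RNAi. *mbnl* RNAi targeted mbnl-1 and the mbnl-like genes together. By the labels *celf*, *esrp*, *nova*, *ptbp* and *rbfoxs* RNAi also targeted groups of genes. Where dsRNAs were combined, each was at 1 µg/µl. Material was taken at a time when, the paper reports, neoblasts had not yet decreased after *bruli* RNAi. All RNAi groups, the controls included, thus carry the injections, and the labels name no RNAi for the wild type. They do not say whether libraries of a group came from separate worms, so p-values measure the spread between libraries, which may be technical.

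Neoblasts are the only dividing cells of an adult planarian and give rise to all of its other cell types. A neoblast that leaves the cycle moves from the X1 gate to the X2 gate, which also holds neoblasts that have not replicated their DNA, and later to Xins. Transcripts of neoblasts can differ in how long they outlast this change, and transcripts of DNA replication and division are tied to the cycling cell. Bruno-like proteins of the CELF family, such as the product of *bruli*, bind RNA and regulate splicing, translation and stability, and *bruli* is needed for neoblast maintenance. Muscleblind (MBNL) proteins bind RNA as well and are best known as regulators of splicing in differentiated cells.

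Library totals were 12.8 to 35.0 M counts, on which 3 counts equalled 0.0858 to 0.235 CPM (counts scaled to a total of 1 M). The sum of 5 neoblast markers, among them a PIWIL1 transcript and *bruli* itself, was 4646 to 11739 CPM in X1, 1686 to 5167 in X2, 421 to 838 in Xins and 773 to 1724 in whole worms. The sum of 12 markers of differentiated cells, chiefly neuronal and muscle RNA-binding proteins, was 41.4 to 57.7, 244 to 411, 434 to 815 and 447 to 564 CPM in the same order, and none of the 12 was at 0 in any library. After control RNAi, 11 of the 12 were lower in X1 than in Xins and 1 was higher. The higher was the ELAVL4 transcript comp10994 (log2 difference 1.36), which was also the largest of the 12 in the X1 controls. The X1 sum thus rests largely on it. After its own RNAi *bruli* was at 12.8% of control in X1 (log2 difference -2.94, SE 0.36), at 22.8% in X2 and at 10.1% in whole worms. After *mbnl* RNAi, mbnl-1 was at 66.8% and mbnl-like-1 at 47.8% of control in X1, against 22.9% and 20.1% in X2. Even for *bruli* the adjusted p in X1 was 0.0915 in edgeR's quasi-likelihood test, so this design of 2 libraries against 2 could miss knockdown effects of that size.

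In the wild type libraries that chose them, the 199 transcripts had a median of 34.9 cRPKM in X1, from 5.13 to 4945. The median was 3.84 in X2 and 0.71 and 0.75 in the 2 Xins libraries. The ordering score ran from 2.33 to 4.10 with a median of 2.77. In 193 of the 199 it was the difference from X2 that set the score, while the difference from Xins had a median of 4.16. No gap separated the last transcripts taken from the next: the last 2 taken scored 2.34 and 2.33, and the next 2 scored 2.33 and 2.32. These values made the choice and carry no test. Transcripts were somewhat shorter than others in X1, with a mappable length implied by counts and cRPKM of 1.09 kb at the median (quartiles 0.59 and 1.69) against 1.30 kb (0.81 and 2.04) for the 8079 transcripts at the X1 minimum.

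**Figure D1:**
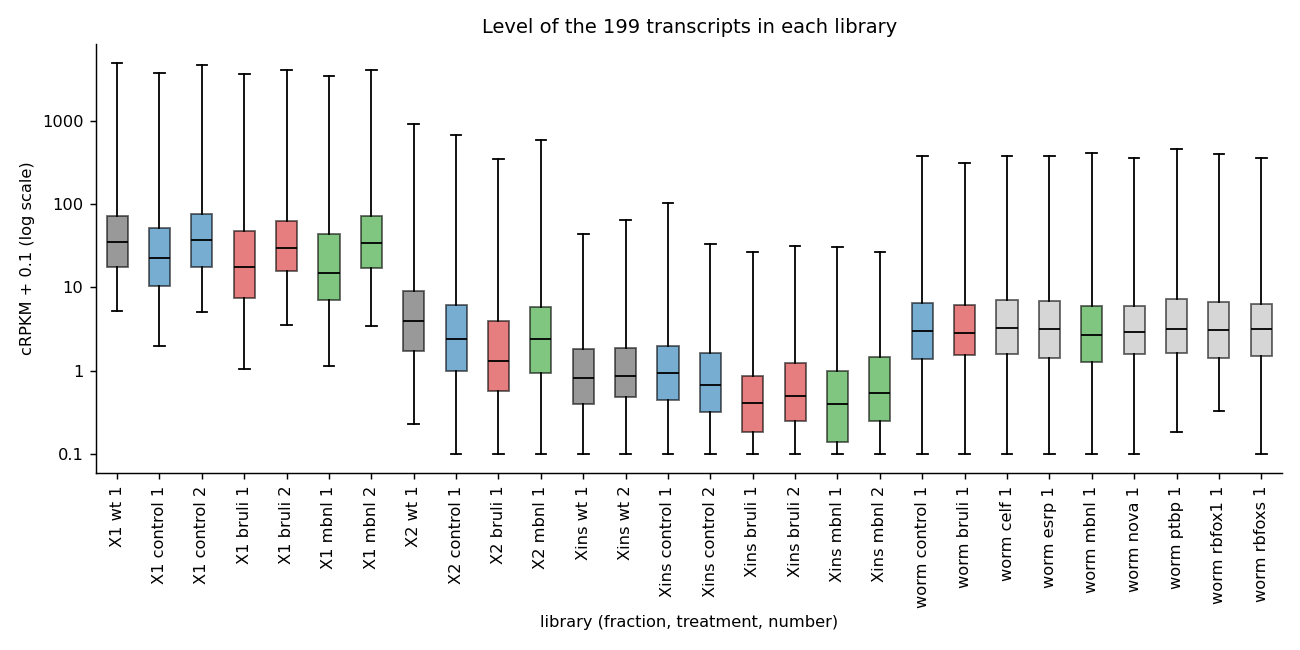
Boxes show the level of the 199 transcripts (cRPKM plus a small constant, log scale) in each library, by fraction, treatment and library number. Levels are highest in the 7 X1 libraries, lower in X2 and whole worms and lowest in Xins, with medians of 22.7 and 36.6 in X1, 2.29 in X2, 0.84 and 0.57 in Xins and 2.92 in whole worms after control RNAi.

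The control RNAi libraries, which the choice did not use, asked whether the steep fall held in other worms. In X1 the median level was 22.7 and 36.6 cRPKM in the 2 libraries, in X2 it was 2.29, and in Xins it was 0.84 and 0.57. Every one of the 199 was lower in X2 and in both Xins libraries than in both X1 libraries. On CPM scaled by trimmed mean (TMM), X2 held a median of 8.25% of the X1 level (quartiles 5.54% and 10.6%). In 133 transcripts the share was under 10% and in 36 under 5%, and the highest was 19.0%. In the wild type cRPKM the same share had a median of 10.7%. Xins held a median of 1.61% of the X1 level, and at most 9.52%. The transcripts were low rather than absent in X2: 197 had counts in the X2 control library, and 183 lay in the order X1 above X2 above both Xins. For the other 16 X2 was within the Xins range or below it, and for 4 of these it was below both Xins libraries.

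All 199 transcripts were called higher in X1 than in Xins (edgeR, adjusted p under 0.05), where 31.9% of all 14572 transcripts tested were called higher. The 199 were chosen for this difference in wild type and passed the filter through X1, while the background includes transcripts that passed through Xins. The counts here and for X2 below thus describe how the choice held in other libraries. Over the 199 the median log2 difference was 6.05 (quartiles 5.28 and 6.62, range 3.45 to 10.85) against -0.13 for all transcripts. It was 6.02 when the 3 transcripts with 0 counts in both Xins controls are set to their lower bound. With 0.5 CPM added, which compresses low values, the median was 4.50 between the libraries numbered 1 and 5.26 between those numbered 2. For X2 against X1, 174 were called lower (edgeR, adjusted p under 0.05), where 7.21% of all 14651 tested were called lower. Their median log2 difference was -3.59 (range -9.45 to -2.39), against -0.06 for all transcripts. The X2 control is a single library, taken to vary like the other groups, and the count rests partly on each X1 control: 133 were called without X1 control 1 and 90 without X1 control 2.

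These transcripts stood apart from another class that is high in X1. A set of 460 transcripts had wild type X1 at least 2 above Xins but less than 1 above X2 on the log2 scale, and so was chosen to be kept in X2. After control RNAi, 457 of the 460 were higher in X1 than in Xins, with a median log2 difference of 2.98, and 126 were lower in X2 than in X1, with a median of -1.25. Among 7 germ-granule and piRNA transcripts (PIWIL1, DDX4, TDRD9, TDRD12 and TDRKH homologues), whose proteins act in small-RNA silencing of transposons in animal germ cells and stem cells, all 7 were higher in X1 than in Xins (median 3.53) and 6 were lower in X2 than in X1 (median -2.23). Of 77 core spliceosome transcripts, 75 were higher in X1 than in Xins (median 2.17) and 15 lower in X2 (median -0.86). Of the wider set of RNA-binding proteins, 214 of 286 tested were higher and 35 lower in X1 than in Xins, and 50 of 287 were lower and 24 higher in X2 than in X1. Since the 199 and the 460 were chosen for these differences in wild type, the contrast between them is a description.

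The first 4 transcripts by the rule differed widely in level but shared the pattern. comp7682_c0_seq1 was at 124 cRPKM in wild type X1, 6.27 in X2 and 1.15 and 1.77 in Xins. After control RNAi it was at 421 and 363 scaled CPM in X1, 22.8 in X2 and 6.97 and 1.19 in Xins. All X1 values lay far above the rest, and as a ratio the 2 Xins libraries differed more from each other than X2 did from the higher of them. The log2 difference was 6.65 (SE 0.80, adjusted p 9.4e-05 in edgeR) for X1 against Xins and -4.10 (SE 0.94, adjusted p 0.0128) for X2 against X1.

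comp2787_c0_seq1 was at 625 and 545 scaled CPM in X1 control, 48.8 in X2 and 11.9 and 1.92 in Xins. comp5956_c0_seq1 was at 503 and 421 in X1, 27.8 in X2 and 8.51 and 1.14 in Xins. For both, Xins control 1 was several times higher than Xins control 2. comp11265_c0_seq1 was at 70.0 and 117 in X1, 4.86 in X2 and 1.57 and 0.412 in Xins, and was the one of the 4 in which X1 control 1 was the lower library. For X2 against X1 the log2 differences of these 3 were -3.58, -4.05 and -4.27, all called (edgeR adjusted p 0.0339, 0.0350 and 0.0115).

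At the extremes of the X1 to Xins difference stood transcripts at or near 0 in Xins. comp40135_c0_seq1 was at 7.58 and 8.65 scaled CPM in X1 control and had 0 counts in both Xins controls. Set against a floor of 3 counts over both Xins libraries, it was at least 196-fold higher in X1. comp63171_c0_seq1 was at 2.10 and 5.40 in X1 and also had 0 counts in both Xins controls, which makes it at least 94.6-fold higher. The smallest differences belonged to comp12781_c0_seq1 and comp13044_c0_seq1, at log2 3.45 (SE 1.25, adjusted p 0.0307 in edgeR) and 3.53 (SE 0.38, adjusted p 5.4e-05). comp13044_c0_seq1 was at 164 and 138 in X1, 15.7 in X2 and 13.1 and 14.2 in Xins, so that its X2 level was close to that in Xins.

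For X2, comp53704_c0_seq1 had 0 counts in the control library against 1.43 and 5.08 scaled CPM in X1, which is at least 29.4-fold higher in X1. comp30278_c0_seq1 had 2 counts in X2 against 9.73 and 34.0 scaled CPM in X1, a ratio of 296 with a counting interval of 81.6 to 2444. Both had X1 libraries that differed over 3-fold from each other, and in wild type X2 they were detected at 4.03 and 2.59 cRPKM. The transcripts kept best in X2 were comp20433_c0_seq1 (10.5 and 10.7 in X1, 2.02 in X2, 19.0% of X1) and comp5663_c0_seq1 (206 and 196 in X1, 33.0 in X2, 16.4%). Their X1 libraries lay close together, and both were called lower in X2 (edgeR adjusted p 0.0309 and 0.0075).

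The share of a library taken by the 199 transcripts gives the pattern on 1 scale. In X1 they took 2.65% of counts in wild type and 2.39% and 2.62% after control RNAi (2.51% ± 0.165, SD, n = 2). In X2 they took 0.374% and 0.334%, in Xins 0.0677% and 0.0599% in wild type and 0.0915% and 0.0556% after control RNAi, and in control whole worms 0.235%. Whole worms and X2 thus stood at 9.39% and 13.3% of the X1 control mean. In bulk RNA such a share cannot tell fewer X1 cells from less RNA per cell. A single transcript, comp648_c0_seq1, named here after its values were seen, made up 29.2% and 28.3% of these counts in the 2 X1 controls, at 8360 and 8619 scaled CPM, and was at 1320 in X2 and at 164 and 22.3 in Xins. The 5 largest made up 45.1% and 42.0%.

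**Figure D2:**
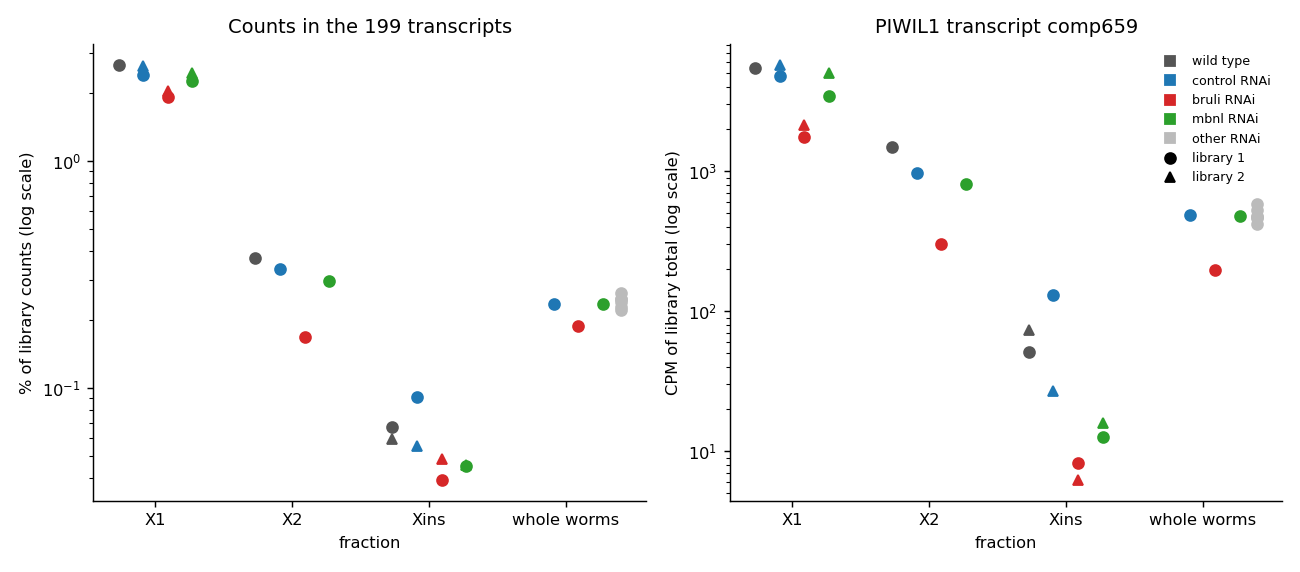
The left panel shows the percent of counts in the 199 transcripts and the right panel the CPM of the PIWIL1 transcript comp659, both on log scales, for every library by fraction, treatment and library number. After *bruli* RNAi the share is 1.91% and 2.04% in X1 against 2.39% and 2.62% in control, 0.168% against 0.334% in X2 and 0.188% against 0.235% in whole worms, and the PIWIL1 transcript is lowest in the *bruli* libraries of every fraction.

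The X1 libraries of 1 group were not alike. Relative to control 2, X1 control 1 was lower by a median log2 difference of -0.26 over the 199 transcripts against 0.02 over all transcripts. In 35 of them it was over 2-fold lower and in 0 over 2-fold higher, where 4.42% of all transcripts were over 2-fold lower. In Xins it was control 1 that stood apart, with a share of 0.0915% against 0.0556% in control 2, and 130 against 26.9 CPM of the PIWIL1 transcript (wild type Xins, 51.4 and 73.3). What part neoblasts in the Xins gate had in this was not tested.

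*bruli* RNAi asked whether loss of a neoblast CELF protein touches these transcripts in the cells that hold them. In X1, 0 of the 199 were called by edgeR after adjustment, against a background of 0%. At an unadjusted p under 0.05, 11 were lower and 0 higher, where 1.96% of all transcripts were lower and 690 of 14572 higher. Of the 199, 145 had a negative log2 difference, where 7102 of all 14572 transcripts did. The median log2 difference was -0.27 (quartiles -0.58 and 0.03, range -2.42 to 0.84) against 0.01 for all transcripts. With 0.5 CPM added it was -0.33 between libraries numbered 1 and -0.27 between those numbered 2. Both *bruli* libraries lay below both controls for 67 transcripts (background 16.9%) and above both for 18 (background 19.8%), and 129 were lower within each number, against 33.9% of all transcripts. The median rested on single libraries: it ran from -0.56 without X1 *bruli* 2 to 0.02 without X1 control 2. Relative to control, transcripts stood at a median of 81.4%, with 20 at 50% or less and 51 at or above control.

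Other transcripts of neoblasts were also below control after *bruli* RNAi. The 460 kept in X2 had a median of -0.25 in X1, with 177 below both controls, the 77 spliceosome transcripts one of -0.18 and the 7 germ-granule transcripts one of -0.92. At an unadjusted p under 0.05 in edgeR, 46 of the 460 were lower and 2 higher. Of the 77, 5 were lower and 0 higher, and of the 7, 4 were lower and 0 higher. The sum of the 5 neoblast markers, which includes the RNAi target *bruli* itself, stood at 41.1% of control in X1. The PIWIL1 transcript stood at 36.9% (4816 and 5751 CPM in control, 1757 and 2142 after *bruli* RNAi). By share of counts, the 199 stood at 78.8% of control (1.91% and 2.04%, 1.97% ± 0.0938, SD, n = 2), 79.9% and 77.8% within the 2 numbers. The markers of differentiated cells lay the other way, with a median log2 difference of 0.75 in X1 and 11 of the 12 positive. In both *bruli* libraries 6 were above both controls (0 called by edgeR, 1 higher at an unadjusted p under 0.05). Their sum stood at 114% of control. It rests largely on the ELAVL4 transcript comp10994, the 1 that was higher in X1 than in Xins, which stood at 78.0% of control. The part of either marker list in these values was not tested.

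DESeq2 gave 20 of the 199 no adjusted p in X1. It called 4 of the 199 lower, where 0.382% of the 12312 transcripts with an adjusted p were, and limma called 0. These 4 are named on that account, after their values were seen. The clearest was comp1651_c0_seq1, at 2081 and 1917 scaled CPM in control, 711 and 622 after *bruli* RNAi and 2230 and 1661 after *mbnl* RNAi. Its *bruli* libraries lay far below all others. The log2 difference was -1.56 (SE 0.29), with an adjusted p of 0.134 in edgeR and 0.0042 in DESeq2. In X2 it went from 285 in control to 110 after *bruli* RNAi, and in whole worms from 172 to 86.1, where the other 7 knockdowns were at 157 to 194.

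comp1920_c0_seq1 had the lowest log2 difference of the 199 in X1. It was at 830 and 744 scaled CPM in control, 139 and 150 after *bruli* RNAi and 376 and 857 after *mbnl* RNAi, so its 2 *mbnl* libraries disagreed. The log2 difference was -2.42 (SE 0.69), with an adjusted p of 0.411 in edgeR and 0.0350 in DESeq2. It went from 103 to 10.7 in X2 and from 61.1 to 17.7 in whole worms, where the other 7 knockdowns were at 54.6 to 70.6. In Xins it was at 19.7 and 3.96 in control and 1.53 and 1.26 after *bruli* RNAi. The *bruli* libraries were thus the lowest of their fraction everywhere save that 1 Xins *mbnl* library, at 1.45, lay between them.

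comp15397_c0_seq1 was at 19.1 and 23.8 scaled CPM in X1 control and 4.77 and 5.70 after *bruli* RNAi (log2 difference -2.01, SE 0.59, adjusted p 0.426 in edgeR and 0.0276 in DESeq2). comp13727_c0_seq1 was at 72.1 and 105 in control and 23.1 and 38.5 after *bruli* RNAi (SE of the log2 difference 0.40, adjusted p 0.365 in edgeR and 0.0176 in DESeq2). For both, the groups did not overlap. comp2614_c0_seq1, at 435 and 347 in control and 143 and 91.9 after *bruli* RNAi, had a log2 difference of -1.72 (SE 0.56) and was called by neither tool.

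The first 4 transcripts by the rule divided in X1. comp7682_c0_seq1 was at 205 and 173 scaled CPM after *bruli* RNAi against 421 and 363 in control, comp2787_c0_seq1 at 309 and 218 against 625 and 545, and comp5956_c0_seq1 at 299 and 206 against 503 and 421. Their groups did not overlap, and none was called (log2 differences -1.03, -1.13 and -0.85). comp11265_c0_seq1, at 63.3 and 105 against 70.0 and 117, overlapped fully. At the other end, comp7575_c0_seq1 was at 254 and 163 after *bruli* RNAi against 128 and 108, and comp11868_c0_seq1 at 123 and 79.6 against 67.9 and 54.7 (log2 differences 0.84 and 0.74, edgeR adjusted p 0.973 and 0.908).

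**Figure D3:**
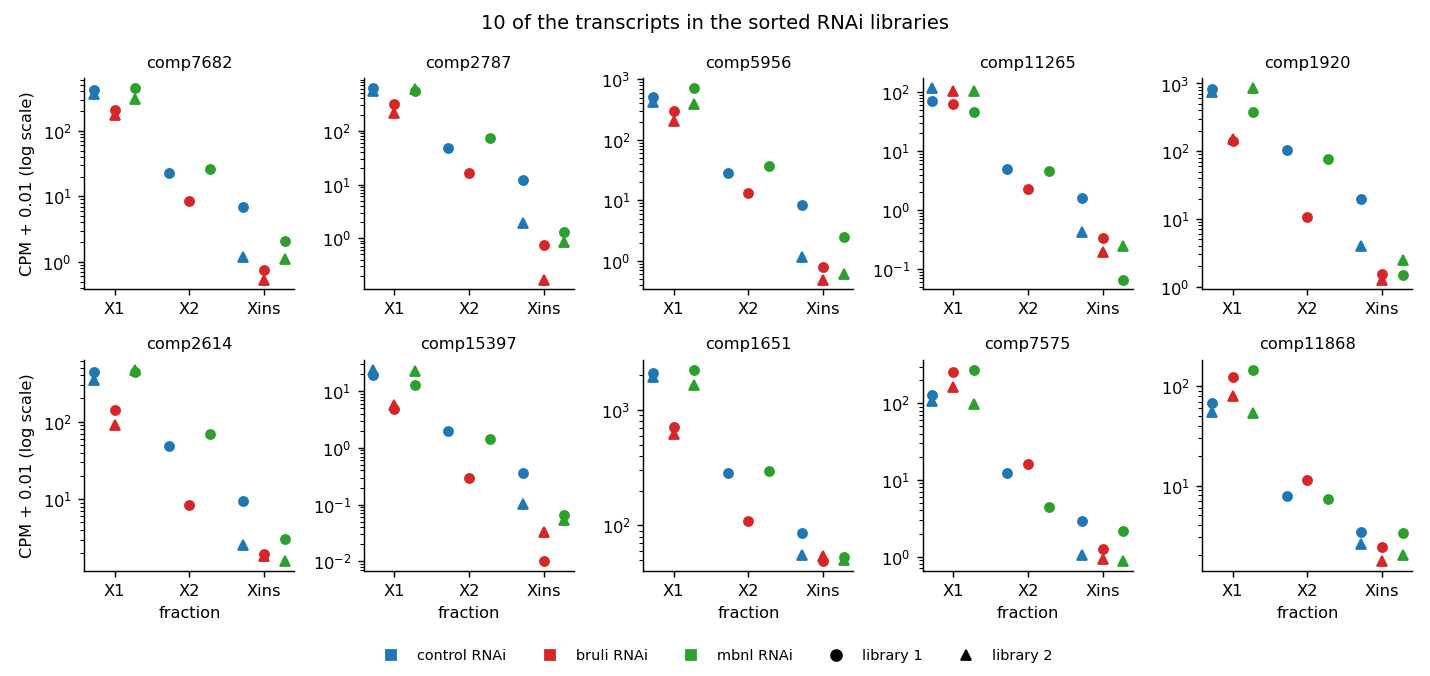
Points show TMM-scaled CPM (log scale, with a small constant added) of 10 of the transcripts in the X1, X2 and Xins libraries after control, *bruli* and *mbnl* RNAi, 1 panel each, with symbols for library number. In every panel the X1 points lie above all X2 and Xins points. comp1920, comp2614, comp15397 and comp1651 are lowest in *bruli* X1 and X2, as comp1920 with 139 and 150 against 830 and 744 in X1, while comp7575 and comp11868 are higher there than in control.

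In X2, with 1 library per treatment and no test, the *bruli* library stood lower. Past a log2((cRPKM + 1)/(control + 1)) of 0.7, 61 of the 199 were lower and 0 higher, where 4.92% of all transcripts were lower and 3.26% higher. The median was -0.43 (range -3.15 to 0.48), against 0.00 for all transcripts and -0.23 for the 460 kept in X2, of which 48 were lower. In scaled CPM 170 of the 199 were lower, where 49.98% of all transcripts were. Over the 145 of the 199 with at least 30 counts in the control the median was 56.2% of control (quartiles 40.5% and 73.8%). The share of counts was 0.168% against 0.334%, or 50.4% of control. The neoblast markers, with *bruli* itself among them, stood at 46.0% and the markers of differentiated cells at 126%. Their part in the X2 values was not tested. comp1920_c0_seq1 and comp2614_c0_seq1 were lowest, the latter at 48.8 in control and 8.41 after *bruli* RNAi, while comp21373_c0_seq1 (0.435 and 0.888) and comp11868_c0_seq1 (7.91 and 11.3) were highest.

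X1 and X2 use different control libraries, so the *bruli* differences can be set side by side. Across the 199 transcripts, Spearman's rho between them was 0.70, and 0.65 with the X1 libraries numbered 2 alone. The X2 libraries are all numbered 1 and share that number with 1 X1 pair. Over all transcripts rho was 0.38, and over the 460 kept in X2 it was 0.60 (0.38 with number 2 alone). With number 1 alone it was 0.66 across the 199, 0.71 across the 460 and 0.45 across all transcripts. Transcripts are not independent replicates. All 36 transcripts under -0.7 in X1 were lower in X2, against 66.1% of all transcripts under -0.7, and 24 of the 36 were lower in whole worms, against 36.1%. Among the 460 kept in X2, 72 were under -0.7 in X1, of which 66 were lower in X2 and 38 in whole worms. For *mbnl* RNAi rho between X1 and X2 was 0.15 across the 199.

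**Figure D4:**
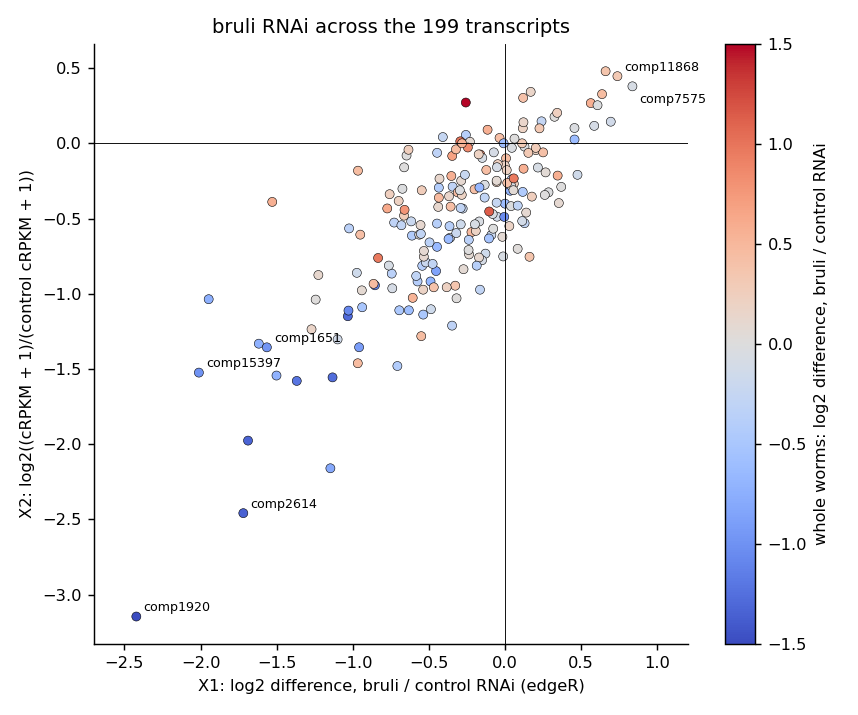
Each point is 1 of the 199 transcripts, placed by its log2 difference after *bruli* RNAi in X1 (x axis, edgeR) and in X2 (y axis, log2 ratio of cRPKM + 1) and coloured by that in whole worms. Points run from comp1920 at the lower left (-2.42 in X1) to comp7575 and comp11868 at the upper right (0.84 and 0.74), with a rho of 0.70.

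Split into 4 classes by wild type X1 level, which the knockdown libraries do not enter, the most abundant transcripts had the lowest medians after *bruli* RNAi. From the least to the most abundant class (50, 50, 49 and 50 transcripts) the median log2 difference was -0.01, -0.28, -0.24 and -0.49 in X1, -0.18, -0.46, -0.53 and -0.82 in X2 and 0.21, 0.09, -0.07 and -0.19 in whole worms. Past 0.7, 3, 14, 17 and 27 were lower in X2. In X1 the same relation was seen over all transcripts: Spearman's rho between wild type X1 level and the X1 difference was -0.29 across the 199 and -0.29 across all. For the X2 difference it was -0.50 and -0.13. In X2 and whole worms the pseudocount of 1 shrinks the differences of scarce transcripts.

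In whole worms after *bruli* RNAi, 17 of the 199 were lower past 0.7 and 8 higher, where 0.805% of all transcripts were lower and 7.02% higher. The median was -0.01 (range -1.73 to 1.65) against 0.13 for all transcripts. The *bruli* library was below all 8 others for 46 transcripts (background 5.84%) and above all 8 for 24 (background 35.5%). comp1920_c0_seq1 and comp2614_c0_seq1 were again lowest, the latter at 11.3 CPM against 22.3 to 31.3 in the other 8 libraries. comp34080_c0_seq1 and comp12388_c0_seq1 were highest, at 0.810 and 1.91 CPM against 0.146 and 0.656 in control, the first of which lies under the floor of 3 counts. The share of counts was 0.188%, below the 0.220% to 0.263% of the other 8 libraries. The neoblast markers, with *bruli* itself among them, stood at 52.8% of control and those of differentiated cells at 97.7%. After the other knockdowns, the number of the 199 lower past 0.7 was 1 for *celf* (background 0.662%), 1 for *esrp* (0.724%), 4 for *mbnl* (1.73%), 3 for *nova* (1.77%), 5 for *ptbp* (0.73%), 1 for *rbfox1* (0.867%) and 2 for *rbfoxs* (1.19%). The number higher was 9 for *celf* (background 2.89%), 1 for *esrp* (1.19%), 2 for *mbnl* (0.573%), 6 for *nova* (2.02%), 3 for *ptbp* (1.34%), 2 for *rbfox1* (0.539%) and 9 for *rbfoxs* (2.64%).

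**Figure D5:**
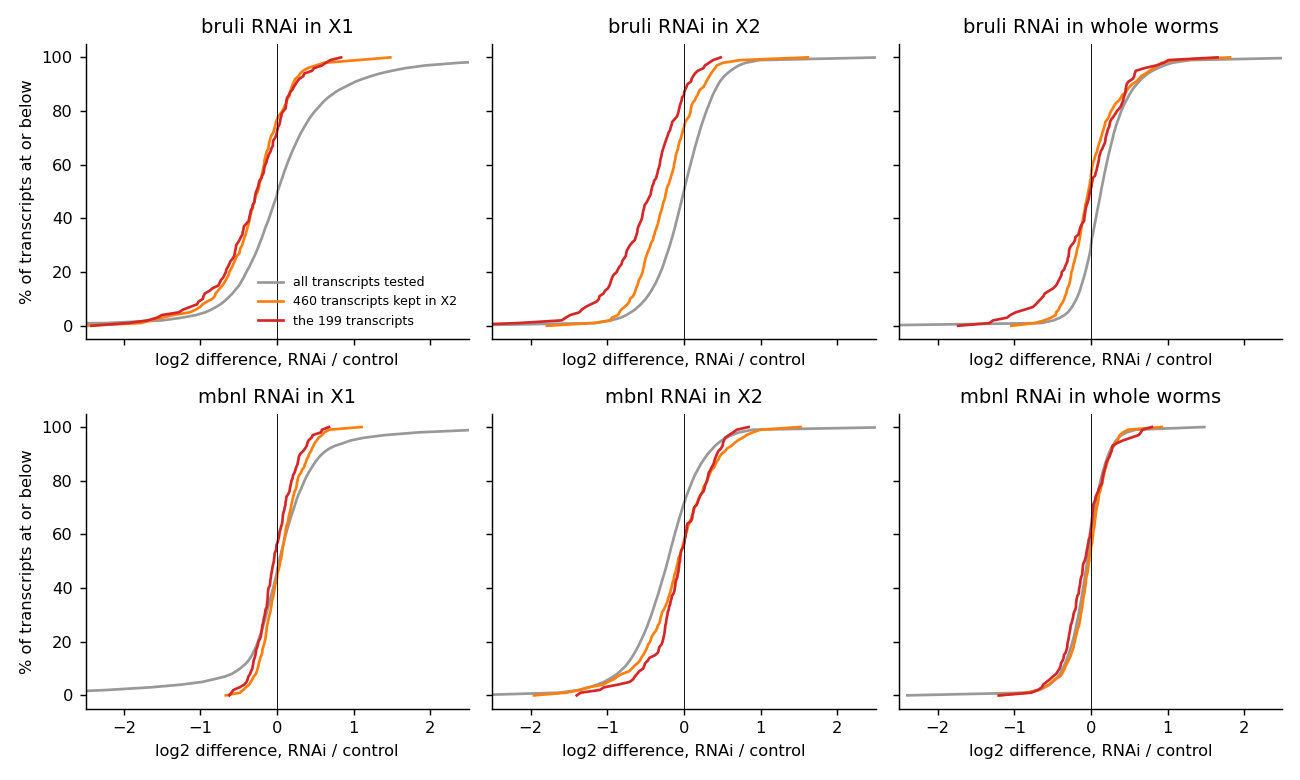
Curves give the percent of transcripts (y axis) at or below each log2 difference between RNAi and control (x axis) in X1, X2 and whole worms, for *bruli* (top) and *mbnl* RNAi (bottom), for the 199 transcripts, the 460 kept in X2 and all transcripts tested. The curve of the 199 lies left of that of all transcripts after *bruli* RNAi, with medians of -0.27 against 0.01 in X1 and -0.43 against 0.00 in X2, whereas after *mbnl* RNAi in X1 the medians are -0.04 and 0.03.

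*mbnl* RNAi served as a second knockdown in the same fractions. In X1 0 of the 199 were called by edgeR (background 0%), 0 by DESeq2 and 0 had an unadjusted p under 0.05 (background 1.08%). The median log2 difference was -0.04 (range -0.62 to 0.68) against 0.03 for all transcripts, and -0.04 and -0.09 within the 2 numbers. Its sign rested on single libraries, since the median ran from -0.52 without X1 *mbnl* 2 to 0.16 without X1 *mbnl* 1. Both libraries lay below both controls for 14 transcripts (background 8.3%), and 55 were lower within each number against 21.4% of all. Transcripts stood at a median of 97.3% of control, and the share of counts at 93.4% (2.24% and 2.45%). The lowest were comp15522_c0_seq1 (7.27 and 5.48 scaled CPM in control, 3.72 and 4.54 after *mbnl* RNAi) and comp34080_c0_seq1 (5.43 and 5.67, 2.90 and 4.34), whose groups did not overlap. The highest were comp16498_c0_seq1 (4.56 and 3.21, 9.81 and 3.40) and comp11868_c0_seq1 (67.9 and 54.7, 146 and 53.1), each raised in 1 of the 2 libraries.

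In X2 after *mbnl* RNAi 11 of the 199 were lower past 0.7 (background 13.3%) and 2 higher (background 2.14%), with a median of -0.05 against -0.21 for all transcripts. The sign depended on the scaling. In cRPKM 111 of the 199 were lower, where 10453 of all 14651 transcripts were. In TMM-scaled CPM 69 were lower, where 52.2% of all transcripts were.

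Set against each other in X1, which leaves out the control libraries, *bruli* and *mbnl* RNAi differed by a median of -0.25. Of the 199, 0 were called by edgeR (background 0%) and 11 were lower in *bruli* at an unadjusted p under 0.05 (background 2.8%), with a median of -0.27 and -0.25 within the 2 numbers. Without X1 *mbnl* 2 the median turned to 0.25, as it did over all transcripts (0.24). Other transcripts high in X1 lay the same way and further. The 460 kept in X2 had a median of -0.32, with 55 lower and 2 higher at an unadjusted p under 0.05 in edgeR. The 77 spliceosome transcripts had a median of -0.42, with 11 lower and 0 higher. DESeq2 called 1 of the 199, comp1651_c0_seq1, at -1.51 with an adjusted p of 0.0054. The background was 0.393% of the 11464 transcripts with an adjusted p, and 29 of the 199 had none. comp1920_c0_seq1 (-2.10, SE 0.68) and comp2614_c0_seq1 (-1.92, SE 0.56) were lowest in *bruli*, with edgeR adjusted p of 0.551 and 0.490. comp21373_c0_seq1 (23.7 and 13.6 scaled CPM in *bruli*, 13.9 and 6.20 in *mbnl*) and comp21773_c0_seq1 (41.0 and 66.6, 26.0 and 35.6) were highest.

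In Xins the 199 are near the floor, having passed the filter through X1, while the background shares cover all transcripts tested, those expressed in Xins included. The counts given for Xins are a description and do not show an effect on the 199. After *bruli* RNAi 0 of the 199 were called by edgeR (background 0%), 46 were lower at an unadjusted p under 0.05 (background 0.57%) and 85 lay below both controls in both libraries (background 10.4%). The median log2 difference was -0.85. After *mbnl* RNAi 0 were called (background 0%), 39 were lower at an unadjusted p under 0.05 (background 1.04%), 80 lay below both controls (background 12.4%) and the median was -0.79. With 0.5 CPM added the medians within the numbers were -0.59 and -0.10 for *bruli* and -0.50 and -0.13 for *mbnl*. Xins control 1 carried much of this: without it the medians were -0.39 and -0.21. As shares of counts, *bruli* stood at 43.0% of control 1 and 87.2% of control 2, and *mbnl* at 49.4% and 82.1%. The neoblast markers, with *bruli* itself among them, stood at 61.9% of control after *bruli* RNAi and 65.9% after *mbnl* RNAi. The part of neoblasts carried over in the gate was not tested.

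Members at the extremes in Xins rested on few counts. comp45908_c0_seq1 had 4 and 4 counts in control and 0 and 0 after *bruli* RNAi, and comp19210_c0_seq1 had 17 and 5, and 0 and 1. comp40135_c0_seq1 (0 and 0, then 1 and 2) and comp34398_c0_seq1 (1 and 0, then 4 and 1) were highest. After *mbnl* RNAi comp21373_c0_seq1 (4 and 1, then 0 and 0) and comp53704_c0_seq1 (0 and 5, then 0 and 0) were lowest, and comp25209_c0_seq1 (4 and 1, then 24 and 3) and comp63171_c0_seq1 (0 and 0, then 0 and 2) highest. DESeq2 called 5 of the 199 lower after *bruli* RNAi, where 0.159% of all transcripts with an adjusted p were, and gave 130 of the 199 no adjusted p. The 5, named for that call, were comp2787_c0_seq1, comp11487_c0_seq1, comp3517_c0_seq1, comp1920_c0_seq1 and comp2921_c0_seq1, and in each both *bruli* libraries lay below both controls. comp11487_c0_seq1, for example, had 69 and 46 counts in control and 5 and 7 after *bruli* RNAi.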

How the data were processed

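The authors deposited, for each library, raw counts per transcript and cRPKM (RPKM corrected for mappable positions), made with Bowtie and vast-tools on a *de novo* transcriptome (TruSeq RNA v2 libraries). The sources used here give no tool versions. Blank cells of the deposited counts (48924) were read as 0. The cRPKM of all 9 sorted RNAi libraries with the number 1 correspond to totals 1.16 to 1.30 times the sum of counts, against 1.00 times in the others.

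Counts were tested with edgeR 4.0.16 (quasi-likelihood, TMM scaling, two-sided, Benjamini-Hochberg over all transcripts tested) in R 4.3.3. X1 and Xins comparisons used the 12 sorted RNAi libraries (X2 against X1 added the 3 X2 libraries), and transcripts with mean log2(cRPKM + 1) above 1.5 in at least 1 fraction. All 199 passed, each through its high X1 level. DESeq2 1.42.0, limma 3.58.1, other filters and scalings and left-out libraries were alternatives. With 1 library per group, no test was made and log2((cRPKM + 1)/(control cRPKM + 1)) past 0.7 was counted. CPM in whole worms, wild type and markers are per library total, other CPM are TMM-scaled. Counting intervals and floors (3 counts) cover counting error only. Replicate libraries had Pearson correlations of 0.939 to 0.973 and were not duplicates.

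The 199 transcripts and the gene lists were chosen with earlier results of these data known. Transcripts named are the first 4 by rank and the 2 highest and 2 lowest in each comparison, unless stated. The code was tested on simulated data.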

Additional observations from a re-analysis of the deposited data

Results flagged for a closer look

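In 4 cases a named transcript moved 1 way in both X1 libraries and the other way in another fraction after the same RNAi. None of these differences was tested. comp7575_c0_seq1 was above both controls in both X1 libraries after *bruli* RNAi and at a log2 difference of -0.0807 in whole worms. comp15522_c0_seq1 was below both controls in X1 after *mbnl* RNAi and at 0.0192 in whole worms. comp34080_c0_seq1 was below both controls in X1 after *mbnl* RNAi and at 0.38 in X2 and 0.80 in whole worms. X2 and whole worms have 1 library per group, and the last transcript was at 0.158 and 0.320 CPM in X2 and 0.146 and 0.374 CPM in whole worms, near the floor of 3 counts. The difference between the X1 and Xins effects was tested over all transcripts in edgeR, and 0 of the 199 were called for either knockdown. At an unadjusted p under 0.05 there were 17 (*bruli*) and 18 (*mbnl*), where 2.74% and 1.11% of all transcripts were. The median difference, X1 minus Xins, was 0.58 and 0.83 over the 199. They are near the floor in Xins, having passed the filter through X1, so these counts are a description and do not show an effect on the 199.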

How the results depend on the processing

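The call of higher levels in X1 than in Xins held for 187 to 199 of the 199 under every alternative, the lowest where the filter on the overall mean left 187 to test. X2 against X1 gave 149 to 199 with other tools, filters and the replicate block, and 90 to 133 with 1 X1 control left out. For *bruli* RNAi in X1 the count of 0 became 4 in DESeq2 and 1 with the replicate block, for *bruli* against *mbnl* RNAi 1 in DESeq2 and 1 with the replicate block, and for *bruli* RNAi in Xins 5 in DESeq2 and 0 to 5 with 1 library left out (5 without Xins control 2). All other alternatives for these, and all for *mbnl* RNAi, gave 0. The numbers of the libraries are not stated to pair them: deviations of same-numbered libraries correlated at 0.04 to 0.72 over 15 pairs of groups, 14 of them above 0.1, so the block is given here only. With a pseudocount of 0.1 in place of 1, the members lower past the fold after *bruli* RNAi went from 17 to 27 in whole worms, where those higher went from 8 to 26, and from 61 to 103 in X2, where those higher went from 0 to 3.

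Directions that turned all did so with 1 library left out. After *bruli* RNAi in X1 comp11265_c0_seq1 ran from -0.58 to 0.32 on the log2 scale, above 0 without *bruli* 1 (0.22) or control 2 (0.32). After *mbnl* RNAi in X1 comp16498_c0_seq1 ran from -0.0771 to 1.18 and comp11868_c0_seq1 from -0.10 to 1.09, both below 0 without *mbnl* 1. After *mbnl* RNAi in Xins comp25209_c0_seq1 ran from -0.20 (without *mbnl* 1) to 4.67, comp53704_c0_seq1 from -4.66 to 0 (without control 2) and comp63171_c0_seq1 from 0 (without *mbnl* 2) to 3.43, the last 2 at 0 because the single library with counts was left out. The causes were not tested beyond this. With the depth of these libraries and 2 per group, knockdown differences in X1 under about the size of that of *bruli* itself could go uncalled.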
